A study of Bos taurus with 4 samples.

Results

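The genes described here are those that make cholesterol and fatty acids, together with the regulators that set their transcription. They were chosen by name: 31 symbols were listed, and 30 of them had a row among the 29792 rows of the count tables. STARD4, a sterol carrier, is not analysed here. The 30 genes fall into 7 enzymes of the mevalonate route, 11 enzymes that turn farnesyl units into cholesterol, 3 regulators and 9 genes of fatty acid synthesis.

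Cholesterol is built from acetyl-CoA. The mevalonate enzymes condense it into isoprene units, FDFT1 joins farnesyl units into squalene, and a chain of sterol enzymes closes the rings and trims them to cholesterol. Fatty acids start from the same acetyl-CoA, which ACLY and ACSS2 supply, ACACA carboxylates and FASN polymerises, before desaturases and elongases modify the product. Transcription of both routes is driven by the sterol regulatory element binding proteins (SREBPs), membrane-bound factors that INSIG proteins hold in the endoplasmic reticulum when sterols are plentiful. The intestinal epithelium makes cholesterol as well as absorbing it, and ruminant tissues rely heavily on acetate as the carbon source for fatty acids.

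The material came from Hanwoo cattle, a Korean breed, and 4 libraries were sequenced. The intestine library was made from tissue and the muscle library from muscle tissue, with no passage in culture. The P5 and P10 libraries were made from intestinal organoids at passages 5 and 10, grown in Matrigel with Intesticult medium from jejunal crypts of healthy animals over 24 months of age. Each group was 1 library, and the labels do not say whether the tissue and the organoids came from the same animal, so passage, culture and animal cannot be told apart and no test between groups was possible. Reads were taken from the 3′ ends of transcripts, and each library held between 12917720 and 17776273 counted reads. A single row, the 18S ribosomal RNA gene RN18S1, took 23.6% of the muscle reads against 0.264% to 4.81% in the other libraries.

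The labels were checked against markers of each tissue. Summed skeletal muscle markers stood at 42640 in muscle on the CPM scale, which divides a count by its library total, and between 1.97 and 3.38 CPM in the other libraries. Summed epithelial markers stood at 1880 CPM in intestine, 21.4 CPM in muscle, 10260 CPM in P5 and 9671 CPM in P10. Stromal markers stood at 998 CPM in intestine and at 3.68 and 0.282 CPM in P5 and P10, and immune markers at 5134 CPM against 5.07 and 9.02 CPM. Enterocyte markers, which mark the absorptive cells, were at 26230 CPM in intestine, 3122 CPM in P5 and 227 CPM in P10, where ALPI, APOA1 and APOA4 had no read. The sums hid opposite moves: FABP1 made up most of the intestine sum, at 19240 CPM against 391.8 CPM in P5 and 103 CPM in P10, whereas ANPEP stood at 7.03, 2066 and 13.7 CPM and SI at 129, 457 and 45.0 CPM. On the normalised scale described below, 7 enterocyte markers had enough reads to compare. In P5, 5 were at least 2-fold lower than intestine and 2 higher (ANPEP and SI), where 18.3% and 19.7% of all rows were. In P10, 6 were lower and 1 higher (ANPEP), where 21.9% and 25.0% of all rows were. The ANPEP difference in P10, 1.04, lay just past 2-fold, and by CPM it was short of 2-fold. Stromal and immune transcripts were thus abundant in intestine and close to absent in the organoids.

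All 30 genes were detected above 3 reads in every library, with between 12 reads (IDI1 in muscle) and 21826 reads (FASN in P10). Summed over the set, they took 1082 CPM in intestine, 351 CPM in muscle, 4934 CPM in P5 and 6051 CPM in P10. By CPM the highest library was P10 for 18 genes and P5 for 12, and the lowest was muscle for 25 and intestine for 5. No gene of the set had its highest CPM in a tissue. The order depended on the scale. On the normalised scale described below, P10 was highest for 15 genes, P5 for 14 and muscle for 1 (ME1). There muscle was lowest for 21 genes and intestine for 9.

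**Figure D1:**
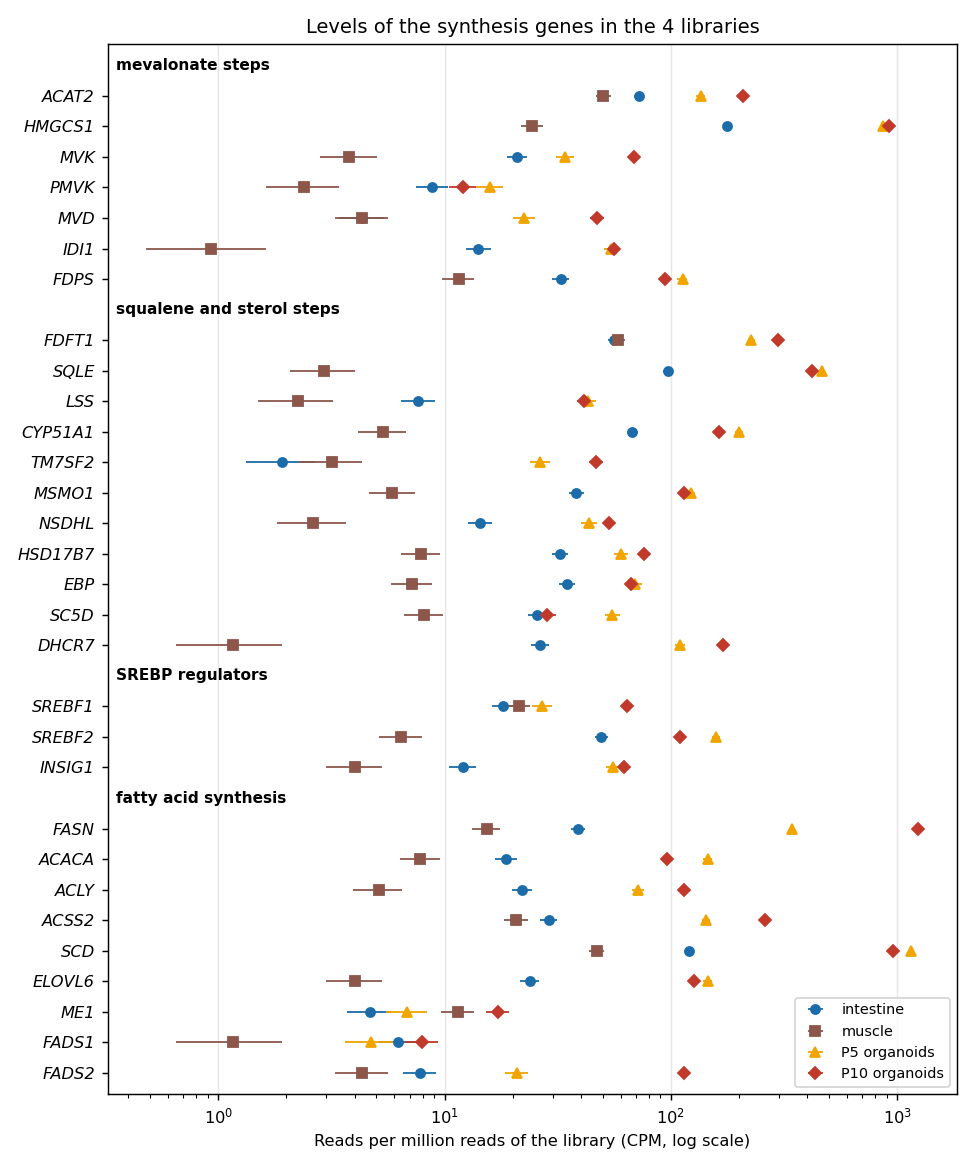
CPM of each of the 30 genes in the intestine, muscle, P5 and P10 libraries, on a log axis and grouped by role, with bars for the exact 95% Poisson interval of the read count (1 library per group). In every row the highest point belongs to an organoid library, P10 for 18 genes and P5 for 12.

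The comparison of organoids with intestine asked how far expression in the cultures matched that of intestine tissue. Differences are given as log2 of the quantile-normalised count plus 1 in the first library minus that in the second. Their 95% interval covers the counting error of the reads only. The reads carry no molecular identifiers, so amplified copies count as separate reads and the interval may be too narrow. A gene was counted as higher or lower when it lay at least 2-fold apart and had at least 100 reads summed over the pair. In P5, 21 of the 30 genes were higher than in intestine, where 19.7% of all rows were, and 0 were lower, where 18.3% of all rows were. The median difference was 1.57 over the genes of the set and 0.087 over all rows counted. In P10, 24 of the 30 were higher, against 25.0% of all rows, and 0 were lower, against 21.9%, with medians of 2.02 and 0.13. Both comparisons use the same intestine library. In bulk RNA a larger share of cells that express a gene and more RNA per cell cannot be told apart.

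The mevalonate route was higher in both cultures. HMGCS1, the cytosolic synthase early in the route, stood at 176 CPM in intestine, 24.4 CPM in muscle, 863 CPM in P5 and 924 CPM in P10. Both organoid libraries were well above both tissues. Its log2 difference from intestine was 2.25 (2.18 to 2.29) in P5 and 2.11 (2.06 to 2.15) in P10. MVD, which decarboxylates mevalonate pyrophosphate, had the largest difference of the route, from 77 reads in intestine and 56 in muscle to 305 in P5 and 837 in P10. That corresponded to differences of 2.73 (2.30 to 3.15) and 3.68 (3.27 to 4.10).

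IDI1, which interconverts the isoprene units, stood at 14.1 CPM in intestine, 0.929 CPM in muscle, 54.6 CPM in P5 and 56.3 CPM in P10. FDPS, which makes farnesyl pyrophosphate, stood at 32.6, 11.5, 113 and 94.6 CPM in the same order. Both genes were more than 2-fold higher in either culture than in intestine. MVK, the kinase that first phosphorylates mevalonate, had 20.9 CPM in intestine, 3.79 CPM in muscle, 34.0 CPM in P5 and 68.9 CPM in P10, and passed 2-fold in P10 alone (1.51, 1.33 to 1.69). ACAT2, the thiolase at the head of the route, passed it in P10 alone too (1.32, 1.22 to 1.42), but its gene overlaps TCP1 in the RefSeq table and the reads of the pair moved together, at 0.775 to 0.897 reads of ACAT2 per read of TCP1 in the 4 libraries. PMVK, the next kinase, was the gene of the route that stayed within 2-fold in either culture, with 157 reads in intestine, 31 in muscle, 216 in P5 and 213 in P10.

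In P5, 4 of the 7 mevalonate genes were higher, against 19.7% of all rows, and in P10, 6 of 7, against 25.0%. The medians were 1.59 and 1.51. The summed CPM of the 7 genes was 3.76 times that of intestine in P5 (95% counting interval 3.65 to 3.87) and 4.29 times in P10 (4.17 to 4.41). HMGCS1 alone supplied 53.5% of the mevalonate reads in intestine, 69.7% in P5 and 65.4% in P10.

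Among the squalene and sterol enzymes, 8 of 11 were higher in P5, against 19.7% of all rows, and 8 of 11 in P10, against 25.0%. The medians were 1.51 and 1.73. TM7SF2, a sterol reductase that acts after CYP51A1, had 34 reads in intestine, 41 in muscle, 359 in P5 and 829 in P10. The difference from intestine, 4.23 (3.70 to 4.81) in P5 and 4.96 (4.44 to 5.53) in P10, was the largest of the 30 genes in P5. In P10 it was the largest on the normalised scale, but ranged from 4.31 to 4.96 over the 6 scalings tried, where FASN ranged from 4.73 to 4.98. The gene starts from the fewest reads of any of the genes in intestine.

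SQLE, the epoxidase that is a rate-limiting enzyme of the sterol steps, stood at 97.3 CPM in intestine, 2.94 CPM in muscle, 465 CPM in P5 and 421 CPM in P10. LSS, which closes the sterol rings, stood at 7.65, 2.25, 43.2 and 41.4 CPM in that order. For both genes the cultures lay close to each other and above both tissues, with differences from intestine of 2.08 and 1.95 for SQLE and of 2.59 and 2.44 for LSS. DHCR7, the last reductase of the route, had 471 reads in intestine, 15 in muscle, 1491 in P5 and 3001 in P10, with differences of 1.87 (1.72 to 2.03) and 2.52 (2.37 to 2.67).

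FDFT1, the squalene synthase, was higher by 1.81 (1.70 to 1.94) in P5 and 2.21 (2.11 to 2.33) in P10. CYP51A1, the demethylase of lanosterol, was higher by 1.33 and 1.06, MSMO1 by 1.48 and 1.35, and NSDHL by 1.51 and 1.73. The last pair removes methyl groups from the sterol ring. EBP, the sterol isomerase, stayed within 2-fold in both cultures at 0.79 and 0.67. HSD17B7 stayed within 2-fold as well, at 0.71 and 0.98, but its count cannot be separated from that of LOC101907096, a gene that overlaps it in the RefSeq table, with 574 and 575 reads in intestine and 1345 and 1393 in P10. Over the scalings tried, EBP reached 1.01 in P5 and HSD17B7 reached 1.23 in P10, so each passed 2-fold under some.

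SC5D, the sterol desaturase near the end of the route, stood at 25.6 CPM in intestine, 8.13 CPM in muscle, 55.2 CPM in P5 and 28.5 CPM in P10. The P5 library was above intestine by 0.95 (0.77 to 1.12), short of 2-fold on the normalised scale. That difference ranged from 0.94 to 1.12 over the scalings and so passed under some. P10 and intestine were not separable (-0.09, -0.29 to 0.09), and the sign of the P10 difference changed with the scaling.

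Of the 3 regulators, INSIG1, which retains SREBPs and is itself an SREBP target, had 214 reads in intestine, 52 in muscle, 754 in P5 and 1102 in P10. It was higher in both cultures, by 2.16 (1.90 to 2.41) and 2.25 (2.0 to 2.50). SREBF2, which encodes the SREBP best known for sterol genes, stood at 49.3 CPM in intestine, 6.43 CPM in muscle, 158 CPM in P5 and 110 CPM in P10. It passed 2-fold in P5 (1.49, 1.38 to 1.62) and not in P10 (0.91, 0.80 to 1.04), where it ranged from 0.90 to 1.15 over the scalings and so passed under some. SREBF1, which encodes the SREBP best known for fatty acid genes, stood at 18.1, 21.3, 27.0 and 63.7 CPM in the same order, and passed 2-fold in P10 (1.63, 1.43 to 1.83) and not in P5 (0.47, 0.25 to 0.71). The gene overlaps RAI1 in the RefSeq table.

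Fatty acid synthesis had the largest summed difference of the 4 roles. Its 9 genes together had 7.51 times the CPM of intestine in P5 (7.28 to 7.75) and 10.8 times in P10 (10.5 to 11.1). Without FASN the other 8 had 7.29 and 7.31 times. In P5, 7 of the 9 were higher, against 19.7% of all rows, and in P10, 8 of the 9, against 25.0%. The medians were 2.14 and 2.21. FASN, the fatty acid synthase, stood at 38.9 CPM in intestine, 15.3 CPM in muscle, 343 CPM in P5 and 1231 CPM in P10. Its difference from intestine was 3.01 (2.89 to 3.13) in P5 and 4.76 (4.65 to 4.87) in P10.

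SCD, the desaturase that makes monounsaturated fatty acids, stood at 120 CPM in intestine, 47.0 CPM in muscle, 1152 CPM in P5 and 957 CPM in P10. The difference was 3.47 (3.40 to 3.53) in P5, the largest of the fatty acid genes there, and 2.73 (2.68 to 2.80) in P10. ACACA, the carboxylase that makes malonyl-CoA, was higher by 2.83 (2.65 to 3.03) and 2.17 (1.99 to 2.37), and overlaps C19H17orf78 in the RefSeq table. The elongase gene ELOVL6 was higher by 2.46 and 2.21. FASN, SCD, ACACA and ELOVL6 each had both cultures above both tissues, as did most genes of the set by CPM.

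The suppliers of acetyl-CoA were higher too. ACSS2, which activates acetate, had 512 reads in intestine, 268 in muscle, 1947 in P5 and 4634 in P10, and differences of 2.14 (1.99 to 2.30) and 3.02 (2.88 to 3.17). ACLY, which splits citrate, had 390, 66, 974 and 2036 reads and differences of 1.55 (1.37 to 1.73) and 2.21 (2.04 to 2.38). ME1, an enzyme that makes NADPH for lipid synthesis, had only 83, 148, 93 and 304 reads and passed 2-fold in P10 alone (2.08, 1.67 to 2.51).

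The desaturases of polyunsaturated fatty acids, FADS1 and FADS2, lie next to each other and overlap in the RefSeq table. FADS2 stood at 7.76 CPM in intestine, 4.34 CPM in muscle, 20.8 CPM in P5 and 114 CPM in P10. FADS1 had few reads throughout, 111 in intestine, 15 in muscle, 64 in P5 and 141 in P10. FADS2 was higher than intestine by 1.56 (1.20 to 1.93) and 3.92 (3.61 to 4.27), whereas FADS1 was within 2-fold in both cultures, and in P5 its interval held 0 (-0.49 to 0.45).

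**Figure D2:**
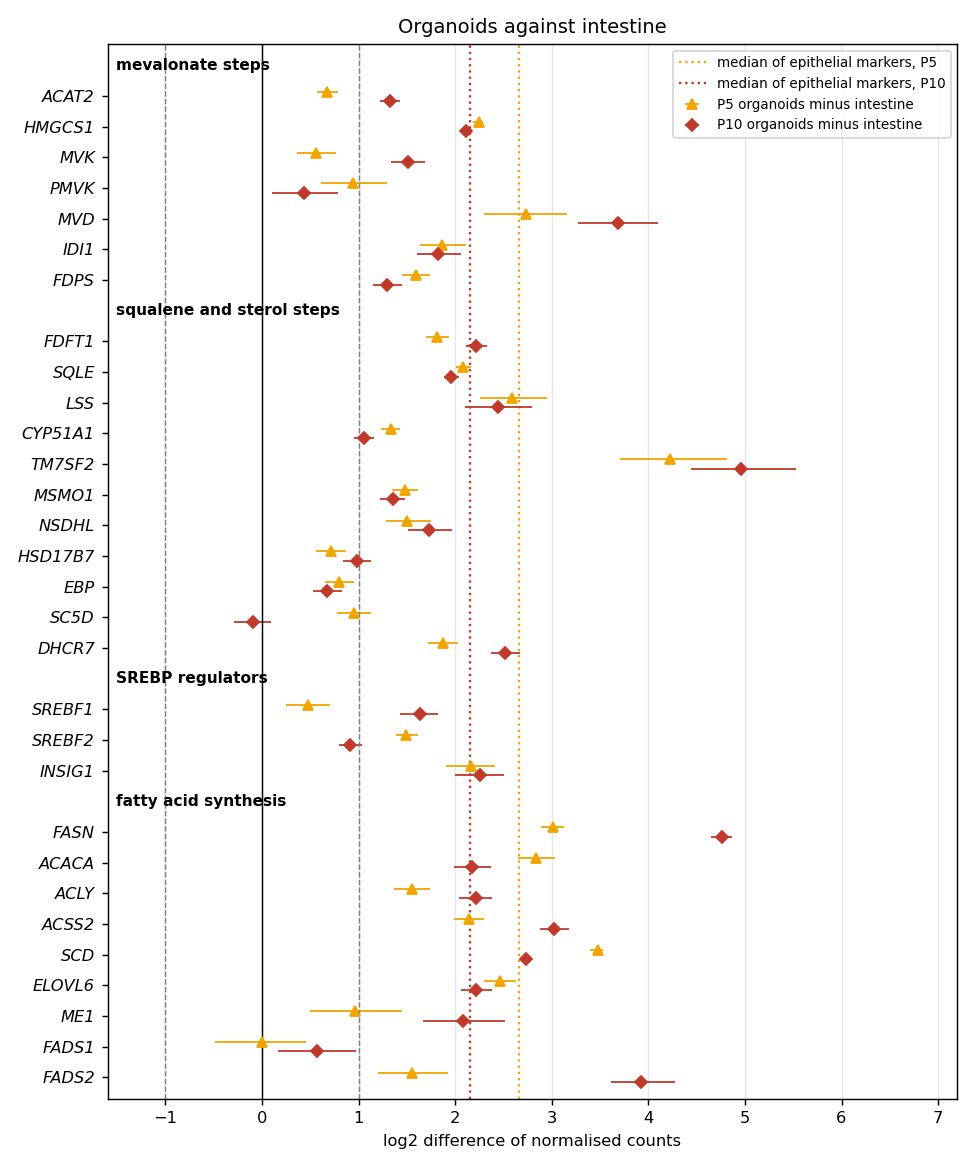
Log2 difference of normalised counts from intestine for the 30 genes in P5 (triangles) and P10 (diamonds), with 95% counting intervals, dashed lines at 2-fold and dotted lines at the median of the epithelial markers in each comparison. No gene lies beyond 2-fold on the lower side, and TM7SF2 and FASN reach 4.96 and 4.76 in P10.

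Epithelial and proliferation markers, taken as sums, were also higher in both cultures than in intestine. The summed CPM of the 10 epithelial markers was 5.46 times that of intestine in P5 and 5.15 times in P10, beside 4.56 (4.49 to 4.63) and 5.59 (5.51 to 5.68) times for the 30 synthesis genes. On the normalised scale the median epithelial marker was higher by 2.66 in P5 and 2.15 in P10. In P5, 5 of the 30 genes lay above that median and 25 below it, and in P10, 13 lay above and 17 below. Markers of dividing cells were 5.28 times as high in P5 and 9.67 times as high in P10 by summed CPM. The part of epithelial share and of proliferation in the differences from intestine was not tested.

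The comparison of P10 with P5 asked what changed over further passages. The set as a whole differed little: 4 of the 30 genes were higher in P10, or 13.3% against 11.2% of all rows, and 1 was lower, or 3.33% against 11.2%. The median was 0.16, beside 0.079 over all rows. The genes did not move one way, with 15 intervals above 0, 11 below and 4 holding 0.

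Of the 4 genes that were higher, FADS2, FASN and ME1 belong to fatty acid synthesis and SREBF1 is a regulator. Other fatty acid synthesis genes, ACACA, SCD and ELOVL6 (-0.25), lay below 0. FADS2 differed by 2.37 (2.20 to 2.56), FASN by 1.74 (1.70 to 1.81), SREBF1 by 1.16 (0.98 to 1.32) and ME1 by 1.12 (0.80 to 1.43). They passed 2-fold under each of the 6 scalings tried. SC5D was the 1 lower gene, at -1.05 (-1.21 to -0.88), and fell inside 2-fold when counts were scaled by library totals. MVD and MVK lay just inside 2-fold, at 0.95 each, and passed it under some scalings, and ACSS2 was higher by 0.88 (0.79 to 0.97).

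Other genes below 0 were ACACA, at -0.66 (-0.77 to -0.55), and SCD, at -0.74 (-0.76 to -0.68). The value for SCD ranged from -0.74 to -0.27 over the scalings and that for ACACA from -0.71 to -0.60, so their order depended on the scaling. SREBF2 lay at -0.58 (-0.68 to -0.49). In the 18 mevalonate and sterol genes 8 intervals lay above 0 and 7 below. TM7SF2 (0.73), ACAT2 (0.65), DHCR7 (0.65) and FDFT1 (0.41) were higher in P10, and PMVK (-0.51), FDPS (-0.30) and CYP51A1 (-0.27) lower, all within 2-fold. HMGCS1, SQLE and MSMO1 at -0.13, EBP at -0.12 and IDI1 at -0.04 lay closest to 0, and the sign of HMGCS1 and IDI1 changed with the scaling. By summed CPM, P10 had 1.44 times (1.42 to 1.46) the fatty acid synthesis reads of P5, 1.14 times (1.12 to 1.16) the mevalonate reads, 1.04 times (1.02 to 1.06) the sterol reads and 0.979 times (0.935 to 1.02) the regulator reads. Without FASN, a sum chosen after the data were seen, the other 8 fatty acid synthesis genes had 1.002 times (0.985 to 1.02) the CPM of P5 and the other 29 genes of the set 1.05 times (1.04 to 1.06). SCD, which was lower in P10, supplied 15662 of the 22983 P5 reads of those 8 genes. Gene by gene, 6 of the 9 fatty acid synthesis genes lay above 0 and 3 below, with a median of 0.66.

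Over the same step the summed epithelial markers were 0.942 times, the proliferation markers 1.83 times and the enterocyte markers 0.0726 times those of P5. All 5 of the 5 enterocyte markers counted were lower, where 11.2% of all rows were. The part of these shifts in the differences between passages was not tested.

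**Figure D3:**
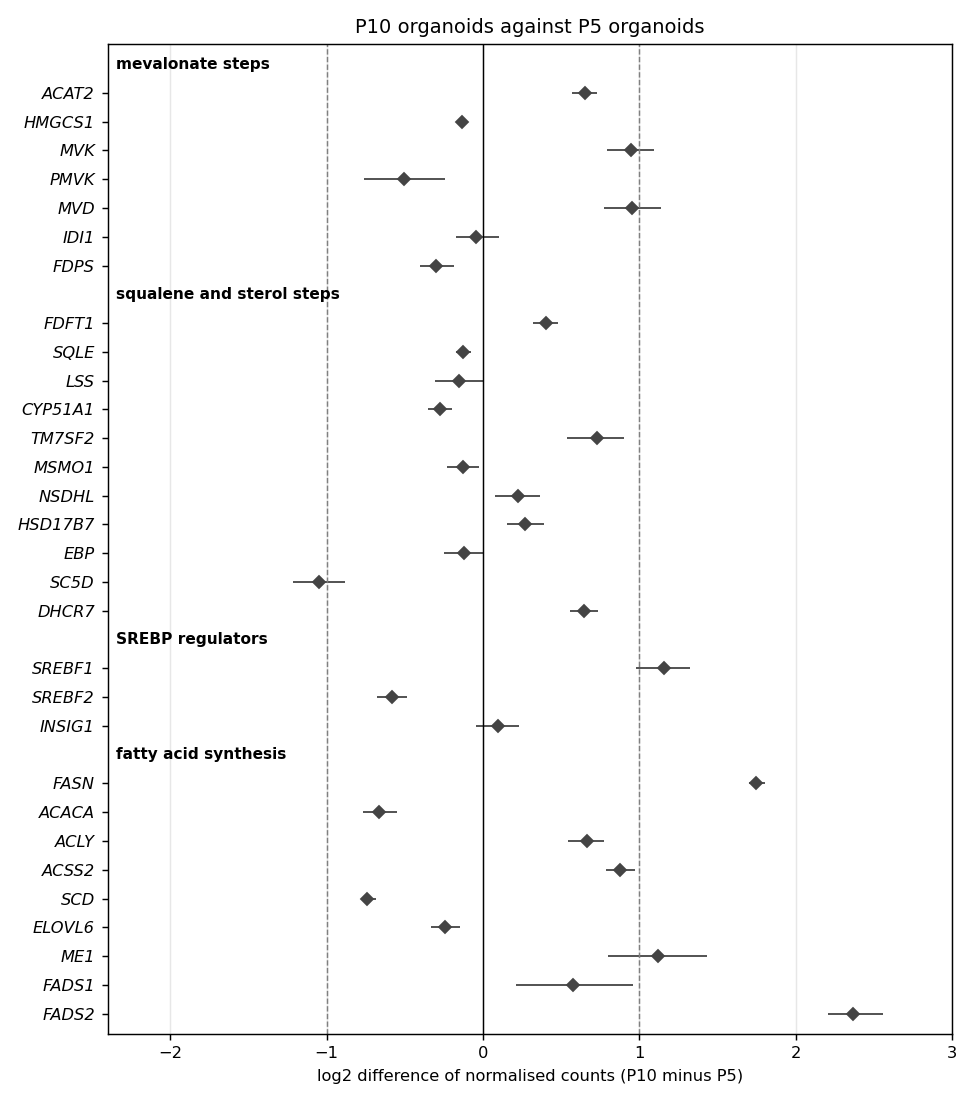
Log2 difference of normalised counts, P10 minus P5, for the 30 genes with 95% counting intervals and dashed lines at 2-fold. FADS2, FASN, SREBF1 and ME1 lie beyond 2-fold on the higher side and SC5D on the lower side.

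Ratios between the reads of 2 genes in the same library do not depend on how libraries are scaled. The pairs were chosen after the values were seen and are a description. For FASN over SCD the ratio was 0.324 in intestine, 0.326 in muscle and 0.298 in P5, and 1.29 in P10. The intervals of P10 (1.26 to 1.31) and of the other libraries did not overlap. The share of FASN among the fatty acid synthesis reads was 14.4%, 13.1% and 16.9% in those 3 libraries and 42.1% in P10, while that of SCD was 44.3%, 40.2%, 56.6% and 32.7% in intestine, muscle, P5 and P10.

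The SREBF1 over SREBF2 ratio was 0.366 in intestine, 3.31 in muscle, 0.170 in P5 and 0.580 in P10. It was therefore lowest in P5 and highest in muscle, with P10 above intestine. FADS2 over FADS1 was 1.24 in intestine, 3.73 in muscle, 4.42 in P5 and 14.3 in P10. INSIG1 over INSIG2, a related retention factor outside the set, was 0.349 in intestine, 0.302 in muscle, 1.91 in P5 and 13.9 in P10. The intervals of the tissues overlapped for this pair, and those of the cultures overlapped neither the tissues nor each other.

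**Figure D4:**
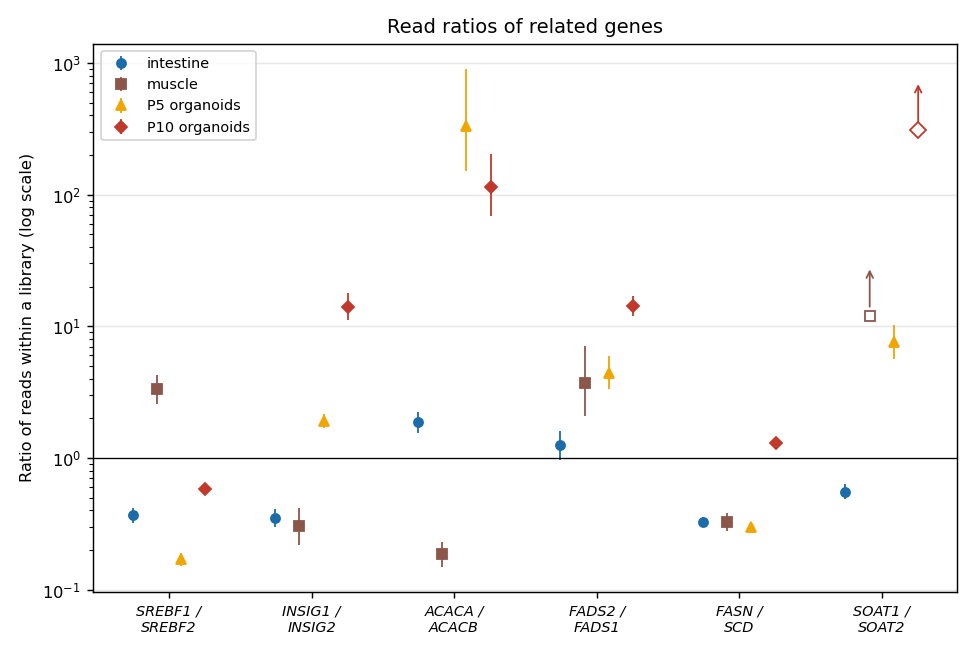
Ratio of the reads of paired genes within each library on a log axis, with 95% counting intervals and open symbols with arrows for lower limits where the second gene had 0 reads. For FASN over SCD the P10 library (1.29) stands apart from the other 3 libraries (0.298 to 0.326), and INSIG1 over INSIG2 runs from 0.302 in muscle to 13.9 in P10.

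The muscle library served as the unrelated tissue. By library totals, the 30 genes had 3.08 times (2.98 to 3.18) the CPM in intestine that they had in muscle. On the normalised scale 29 genes had enough reads to count, of which 11 were higher in intestine, or 37.9% against 29.0% of all rows, and 3 were lower, or 10.3% against 24.2%. The median was 0.55, beside 0.061 over all rows. These counts depended on the scaling: by library totals 22 genes were higher and 1 lower, while 55.2% of all rows were higher and 9.45% lower and the median of all rows shifted by 1.15.

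The 11 genes that passed 2-fold under every scaling were mainly of the sterol route. SQLE had 1729 reads in intestine and 38 in muscle (3.83, 3.38 to 4.39), DHCR7 471 and 15 (3.44, 2.56 to 4.35), IDI1 251 and 12 (2.81, 1.84 to 3.75) and CYP51A1 1203 and 69 (2.45, 2.13 to 2.81). HMGCS1 (1.94), SREBF2 (1.74), MSMO1 (1.48), ELOVL6 (1.27), MVK (1.15), NSDHL (1.09) and EBP (1.06) completed them. ELOVL6 was the only fatty acid gene among them.

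ME1 was the 1 gene that was lower in intestine by 2-fold under every scaling, at 4.67 CPM against 11.5 CPM in muscle and a difference of -2.92 (-3.37 to -2.48). MVD and SREBF1 also passed on the normalised scale, at -1.76 and -1.34, but MVD stood at 4.33 CPM in intestine and 4.34 CPM in muscle, and SREBF1 at 18.1 and 21.3 CPM. The direction for ACAT2, ACACA, ACSS2 and FADS2 changed with the scaling. Of the 8 fat cell markers, 6 had more reads in muscle than in intestine (ADIPOQ 198 and 1, FABP4 383 and 32, PLIN4 215 and 55, LIPE 116 and 22, PLIN1 36 and 18, LEP 9 and 1). The other 2, PCK1 with 0 and 1142 and CIDEC with 32 and 223, had more in intestine, and the list summed to 76.6 CPM in muscle and 84.0 CPM in intestine. The part of fat cells in the muscle values was not tested.

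Genes around the set were read from 6 lists of related pathways, 62 symbols in all. Among the other genes of sterol synthesis and SREBP processing, 0 of the 6 counted were higher than intestine in P5 and 1 was lower, with a median of 0.27, and in P10, 2 of 6 were higher and 1 lower, with a median of 0.54. Of all rows, 19.7% were higher and 18.3% lower in P5, and 25.0% and 21.9% in P10. SCAP, which escorts SREBPs to the Golgi, had 616 reads in intestine, 136 in muscle, 1038 in P5 and 2139 in P10, and differed from intestine by 0.94 (0.79 to 1.09) in P5 and 1.58 (1.45 to 1.72) in P10. INSIG2 went the other way, with 613, 172, 395 and 79 reads and differences of -0.42 and -2.95. MBTPS1, a protease that activates SREBPs, was the lower gene in P5 (-1.05), where MBTPS2, the protease that makes the next cut, lay at 0.98.

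In the list for uptake, export and esterification of sterols, of the 13 genes counted in P5, 2 were higher and 4 lower, where 19.7% and 18.3% of all rows were, with a median of -0.26, and of the 12 counted in P10, 4 were higher and 7 lower, where 25.0% and 21.9% of all rows were, with a median of -1.66. MYLIP, a ubiquitin ligase that limits lipoprotein uptake, had 1132, 160, 57 and 121 reads (-3.93 and -3.38), and ABCA1, a cholesterol exporter, 450, 309, 27 and 23 reads (-3.45 and -3.89). Both are known targets of the liver X receptors, as is ABCG1, a related exporter that was higher in both cultures, with 52, 50, 68 and 141 reads (1.35 and 1.85). ABCG5, the partner of ABCG8, was the other higher gene in P5, with 52, 0, 68 and 2 reads (1.35). By CPM both ABCG1 and ABCG5 stood at 2.93 in intestine and 5.0 in P5, short of 2-fold. The related lists were not recomputed under the other scalings. ABCG1 and ABCG5 were named after their values were seen. SOAT2, which esterifies cholesterol in enterocytes, had 655 reads in intestine, 55 in P5 and 0 in P10, where a limit of 3 reads (0.169 CPM) was taken for a count of 0, so that P10 was at least 77.7-fold lower than intestine. The exact 95% Poisson limit of that count is 0.208 CPM. ABCG8, part of the sterol exporter of the brush border, had 628, 302 and 14 reads in those libraries (-0.82 and -4.97).

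Other lipogenic genes were mixed. In P5, 6 of 14 were higher and 2 lower, where 19.7% and 18.3% of all rows were. In P10, 6 of 14 were higher and 1 lower, where 25.0% and 21.9% of all rows were. The list medians were 0.74 in P5 and 0.91 in P10. ACACB, the carboxylase isoform tied to fatty acid oxidation, ran against ACACA: it had 179 reads in intestine, 543 in muscle, 6 in P5 and 15 in P10, so that the ACACA over ACACB ratio was 1.86, 0.186, 330 and 114. OXSM, a mitochondrial fatty acid synthase, was higher by 3.08 in P5 and 2.63 in P10, and PGD, an NADPH source, by 2.21 and 2.79.

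Triglyceride assembly and export had the lowest medians of the 6 lists, -3.41 in P5 and -4.01 in P10, with 5 of 7 genes lower and 1 higher in both. Of all rows, 18.3% were lower and 19.7% higher in P5, and 21.9% and 25.0% in P10. MTTP, which loads lipid onto apolipoprotein B, had 4832 reads in intestine, 193 in P5 and 1 in P10, a difference of -4.47 in P5 and of -10.02 (-11.99 to -8.81) in P10. The P10 count lay under the limit of 3 reads, so the size of the P10 difference is uncertain. APOB had 16622 reads in intestine, 971 in P5 and 7 in P10. The higher gene was AGPAT2, an acyltransferase named after its values were seen, at 81 reads in intestine, 441 in P5 and 1303 in P10 (3.15 and 4.25). Of the enterocyte markers described above, 5 of 7 were lower in P5 and 6 of 7 in P10, with ANPEP higher in both and SI higher in P5, and their part in these values was not tested.

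**Figure D5:**
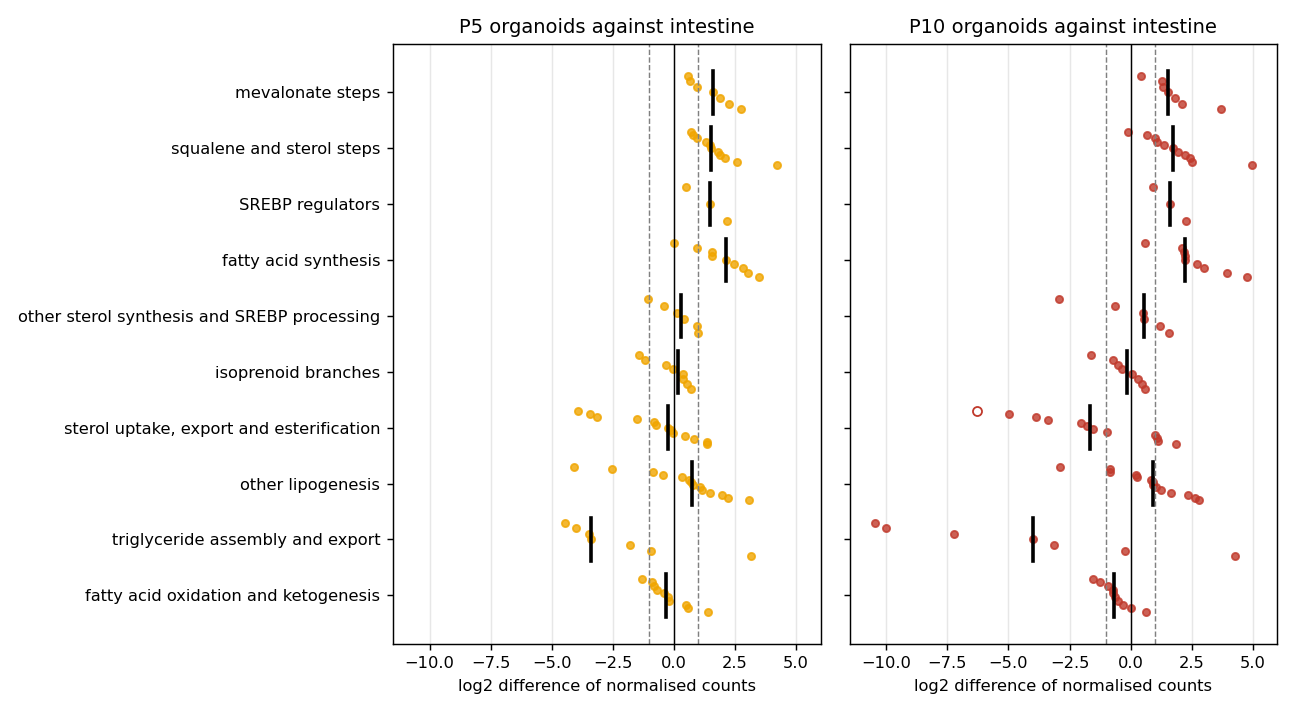
Log2 difference of normalised counts from intestine in P5 and P10 for each gene of the 30-gene set by role and of the 6 related lists, with 1 point per gene, bars at list medians and an open circle for SOAT2, which had 0 reads in P10 and is drawn at the 77.7-fold that a limit of 3 reads gives. Points of the synthesis roles lie mostly above 0, and those of triglyceride assembly and export mostly below it, with medians of -3.41 and -4.01.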

How the data were processed

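Total RNA libraries were made with a 3′ end kit (QuantSeq). Per the methods of the study, the authors aligned with Bowtie2, used Bedtools to count reads with 1 or more alignments, and applied quantile normalisation with edgeR; versions, genome build and use of strand are not given in the sources used here. The deposited values used were raw counts per gene symbol. Reads shared between overlapping or near-identical genes cannot be separated. Quantile normalisation was recomputed on the 22200 rows that had at least 1 read, with all 4 libraries together (pandas 2.3.3, numpy 2.4.6), and values were compared as log2(value + 1). Counting intervals are exact Poisson bounds at 95% (scipy 1.17.1) carried through the normalisation. Alternatives used edgeR 4.0.16 and DESeq2 1.42.0 scaling factors. Scripts were tested on simulated data. The genes and lists were chosen with earlier results of these data known. Full values went to genes at least 2-fold apart and to the extremes of each role, and to the 2 largest differences of a related list. Overlaps of genes come from the RefSeq table of assembly ARS-UCD2.0, which matched 31 of the 31 symbols. Some genes of the related lists are not reported here and were left out of the counts.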

Additional observations from a re-analysis of the deposited data

How the results depend on the processing

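Each group was 1 library, so no replicate could be left out and biological spread is unknown. No paired analysis was possible because each group had a single library and the labels carry no replicate numbers. Over 10 other settings and 1 chosen after seeing the data (quantile normalisation without muscle), 1290 single-gene values were recomputed, of which 1083 stayed within their counting interval, 207 moved beyond it, and 0 genes that were at least 2-fold apart changed direction. The counts of higher genes ran from 21 to 23 in P5 against intestine, from 23 to 26 in P10 against intestine and from 4 to 6 in P10 against P5. The P10 against intestine median became 1.81 with TMM, 1.81 with DESeq2 size factors, 1.80 with upper-quartile scaling and 1.81 with rows of at least 10 reads in every library. The P5 against intestine median became 1.75 with library totals and 1.76 with totals without RN18S1, and with library totals 0 genes were lower in P10 than in P5. For intestine against muscle, library totals and totals without RN18S1 gave 22 and 21 higher genes, 1 and 1 lower, and medians of 1.85 and 1.53. The cause was not tested. Below about 100 reads, as for MVD or TM7SF2 in the tissues, depth limits the precision.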

Other observations

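Fatty acid oxidation and ketogenesis, the routes that burn the products of the genes above, were mostly within 2-fold of intestine. Of the 10 genes counted, 1 was higher and 1 lower in P5, where 19.7% and 18.3% of all rows were, with a median of -0.31. In P10, 0 were higher and 2 lower, where 25.0% and 21.9% of all rows were, with a median of -0.68. Intervals lay above 0 for 3 genes and below it for 7 in P5, and for 1 and 8 in P10. PPARGC1A, a coactivator of oxidative genes, was higher than intestine in P5 (1.40) and lay at -0.70 in P10. PPARA, a receptor that activates oxidative genes, lay at -1.30 in P5 and -1.53 in P10, where ACAA2, a thiolase of mitochondrial oxidation, lay at -1.26.

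The isoprenoid branches, which draw on the same farnesyl units for dolichol, ubiquinone and protein prenylation, had 0 of 8 genes higher in either culture. In P5, 2 were lower, GGPS1 (-1.42) and DHDDS (-1.19), and in P10, 1 was, DHDDS (-1.63), while PGGT1B lay at -0.72. The list medians were 0.16 and -0.15. Of all rows, 19.7% were higher and 18.3% lower in P5, and 25.0% and 21.9% in P10.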
